A study of Mus musculus with 13 samples.

Results

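The 6 genes described here are the serpins Serpinb9, Serpinb9b, Serpinb6b, Serpinb6a, Serpina3g and Serpine2, measured as messenger RNA in natural killer (NK) cells of the mouse spleen. They were taken by name from a table of 11989 genes, which holds 15 genes named Serpin, and all 6 passed the filter on low values. They were chosen by name with the levels and the test results of these same 13 libraries already known, and which of those values led to each choice is not recorded. The tests below were run on all genes together. For these genes they describe how large a difference was beside the spread between libraries, and they are not independent evidence for the pattern that led to the choice.

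All libraries came from wild-type C57BL/6 mice, and the groups differ in culture and in stimulation. HD anti-NK1.1 cells (3 libraries) were cultured with IL-15 for 72 hours under the label HD and stimulated with anti-NK1.1 for 6 hours. HD unstimulated cells (2 libraries) had the same 72-hour culture and no stimulation in the labels. LD anti-NK1.1 cells (2 libraries) had the 72-hour culture under the label LD and the same 6-hour stimulation. Naive anti-NK1.1 cells (3 libraries) and naive unstimulated cells (3 libraries) had no culture time in the labels. For unstimulated cells, HD or naive, the labels give no time to match the 6 hours of stimulation. In the responses below, the antibody and 6 hours of incubation therefore cannot be told apart. The labels do not spell out HD and LD, and no unstimulated LD library is used here, so the response of LD cells to the antibody was not measured. IL-15 is a cytokine on which NK cells depend for survival, and NK1.1 is an activating receptor of NK cells in this strain. The labels do not say whether libraries of a group came from separate mice or cultures, so the p-values measure only the spread between these libraries.

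Serpins are protease inhibitors that trap their target: the protease cuts a loop of the serpin and stays bound to it. Cytotoxic lymphocytes carry granules filled with proteases, the granzymes and cathepsins, and express intracellular serpins of clade B that are known to guard the cell against proteases that leak into its own cytosol. In the mouse the clade B genes have multiplied into a cluster on chromosome 13, so that several of them have no single human counterpart. Serpine2, also called protease nexin-1, is secreted and acts outside the cell.

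Levels are given as CPM (the share of a library's total count, scaled up), computed from deposited values that had been brought to the same distribution in every library. Recovered from the order of values, the reads at the median gene ranged from 112 to 463 between libraries, with the fewest in a naive unstimulated library and the most in an LD library. All 10 NK cell markers had reads in every group, and their summed level was 4555 to 6403 CPM in HD anti-NK1.1, 11200.0 to 11221 in HD unstimulated, 3892 to 3939.7 in LD anti-NK1.1, 4576 to 5292 in naive anti-NK1.1 and 11622 to 15001 in naive unstimulated cells. In each of the HD and naive responses, 6 of the 10 were lower with the antibody and 1 was higher. Among the lower was Gzma, with log2 differences of -1.91 in HD and -1.52 in naive cells. Klrk1 differed by 0.06 and -0.07 and was not called. The sum of NK cell markers thus mixes genes that responded to the antibody with genes that did not pass. Markers of other cell types also differed along the groups. Summed macrophage, monocyte and dendritic cell markers were at 87.5 to 115 CPM in HD anti-NK1.1, 144 to 203 in HD unstimulated, 305 to 423 in LD anti-NK1.1, 470.4 to 543 in naive anti-NK1.1 and 526 to 617 CPM in naive unstimulated cells. Summed erythroid and platelet markers were at 0.67 to 1.3 CPM in HD anti-NK1.1, 1.23 to 2.11 in HD unstimulated, 64 to 97.2 in LD anti-NK1.1, 117 to 137 in naive anti-NK1.1 and 143 to 252 CPM in naive unstimulated cells. All 9 of these erythroid and platelet markers tested were lower in HD than in naive cells, with a median log2 difference of -6.81 without and -6.85 with the antibody. Summed basophil and mast cell markers were at 64.6 to 104 CPM in HD anti-NK1.1, 79.9 to 92.8 in HD unstimulated, 177 to 207 in LD anti-NK1.1, 163 to 298 in naive anti-NK1.1 and 128 to 214 CPM in naive unstimulated cells. Of the 8 basophil and mast cell markers, 6 were lower and 1, Kit, was higher in HD than in naive cells without the antibody, with a median log2 difference of -5.29. Summed B cell markers were under 1 CPM in every HD library, 0.519 to 1.45 CPM in LD anti-NK1.1, 1.43 to 4.17 in naive anti-NK1.1 and 8.49 to 15.8 CPM in naive unstimulated cells. Of 8 T cell markers 4 are in the table. Their sum was 24.4 to 29.3 CPM in HD anti-NK1.1 and 38.5 to 44.7 CPM in HD unstimulated cells. It was 14.7 to 19.1 CPM in LD anti-NK1.1, 29.2 to 33 in naive anti-NK1.1 and 61.5 to 71.1 CPM in naive unstimulated cells. Cd3e and Cd3d were lower in HD than in naive cells without and with the antibody, and Cd3g was higher with it. The part of these cell types in the differences below was not tested. The file header places all HD libraries and LD library 1 in pool 1, and all naive libraries and LD library 3 in pool 2. The comparison of HD with naive cells therefore runs along the pools, and only the pair of LD libraries separates the 2. In bulk RNA, fewer cells of a type and less RNA per cell cannot be told apart.

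In HD cells the antibody went with higher RNA of 4 of the 6 serpins and lower RNA of 1, where 15.9% of all 11543 genes tested were higher and 17.2% lower. Serpinb9, Serpinb9b and Serpinb6b, which lie close together on chromosome 13, rose 2.44-fold, 2.67-fold and 2.48-fold, and Serpine2 rose 7.99-fold. Serpinb6a, which lies farther along the same chromosome, fell by 0.98 on the log2 scale. In naive cells Serpine2 rose 33.9-fold, while Serpinb9b and Serpina3g fell by 0.67 and 0.66 on the log2 scale, where 14.5% of all genes were higher and 14.7% lower. Calls are Benjamini-Hochberg adjusted p under 0.05 from limma, and differences are log2 values with their SE.

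Per kilobase of exon, Serpinb6b was the most abundant of the 6 in every group, with mean levels of 1531 CPM per kb in HD anti-NK1.1, 618 in HD unstimulated, 439 in LD anti-NK1.1, 272 in naive anti-NK1.1 and 287 in naive unstimulated cells. Serpinb9 came next in every group, with mean levels of 324 CPM per kb in HD anti-NK1.1, 132 in HD unstimulated, 150 in LD anti-NK1.1, 89.3 in naive anti-NK1.1 and 102 in naive unstimulated cells. Serpina3g followed, at 99.5 CPM per kb in HD anti-NK1.1, 81.1 in HD unstimulated, 75.4 in LD anti-NK1.1, 44.8 in naive anti-NK1.1 and 71.7 in naive unstimulated cells. The other 3 genes changed places with the group. Serpine2 had 42.2 CPM per kb in naive anti-NK1.1 cells and was last of the 6 at 0.842 CPM per kb in HD unstimulated and at 1.23 CPM per kb in naive unstimulated cells, while Serpinb6a was last in the other 3 groups, at 5.83 CPM per kb in HD anti-NK1.1, 2.32 in LD anti-NK1.1 and 2.92 in naive anti-NK1.1 cells. Ranked by level among all 11989 genes, Serpinb6b stood in place 27 in HD anti-NK1.1 cells, 100 in HD unstimulated, 143 in LD anti-NK1.1, 231 in naive anti-NK1.1 and 226 in naive unstimulated cells.

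**Figure D1:**
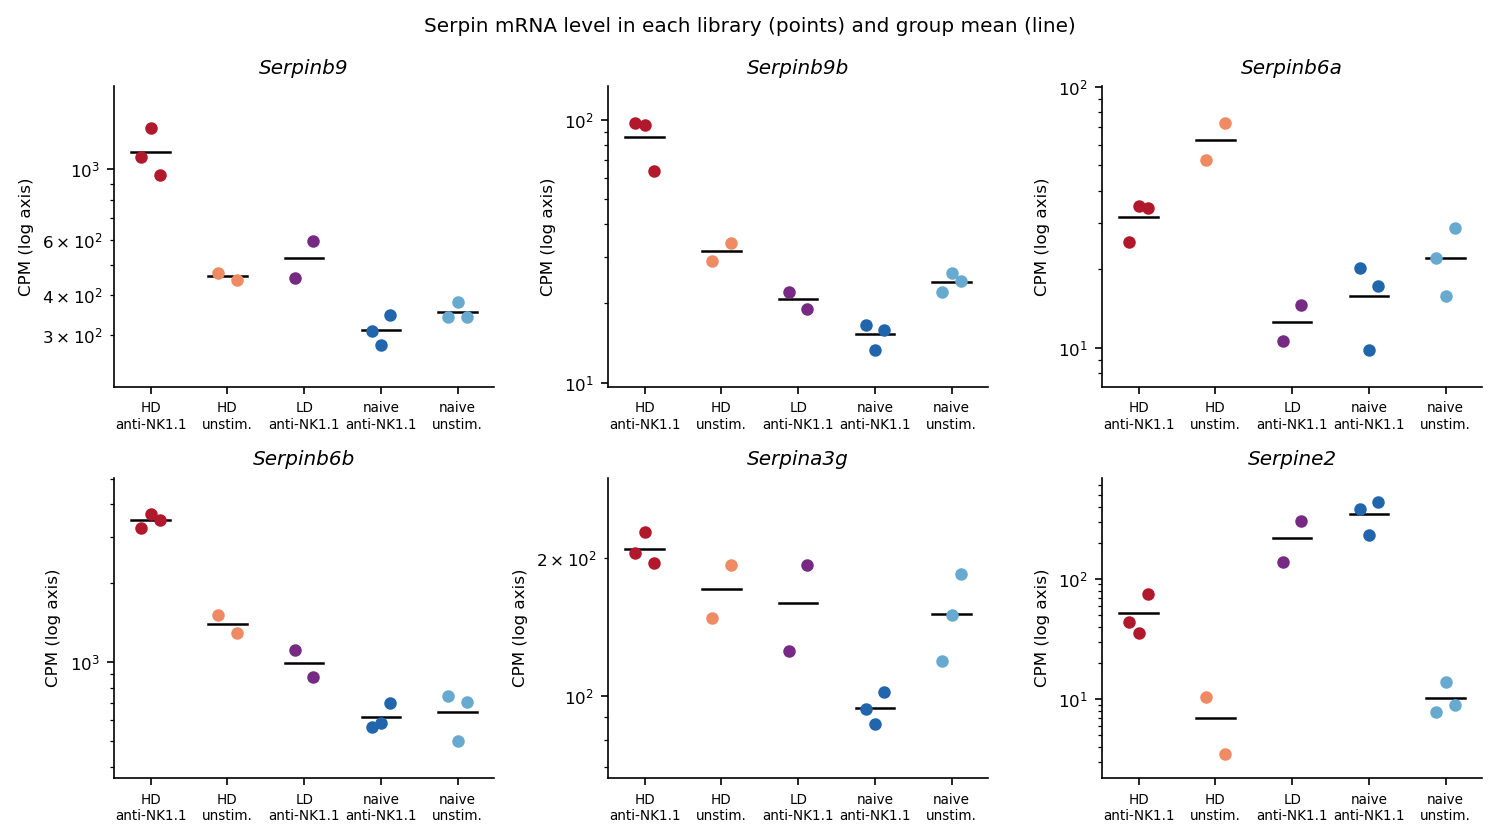
Level of each serpin gene in CPM on a log axis, with a point for each of the 13 libraries and a line at the group mean. Serpinb9, Serpinb9b and Serpinb6b stand highest in the 3 HD anti-NK1.1 libraries, Serpinb6a stands highest in the 2 HD unstimulated libraries, and Serpine2 stands higher in every anti-NK1.1 library than in any unstimulated library.

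Serpinb9, the mouse inhibitor of granzyme B also known as SPI-6, lies on the plus strand at chr13:33003250-33017957 of mm10. Its level was 1093, 1349.5 and 956 CPM in HD anti-NK1.1 libraries, 472 and 449 CPM in HD unstimulated libraries, 454 and 594 CPM in LD anti-NK1.1 libraries, 309.5, 279 and 348 CPM in naive anti-NK1.1 libraries, and 342, 381 and 341 CPM in naive unstimulated libraries. All 3 HD anti-NK1.1 libraries were above every other library, HD unstimulated and LD libraries overlapped, and the naive groups overlapped with each other. The level averaged 1133 ± 199.7 CPM in HD anti-NK1.1 cells (SD, n = 3) and 461 ± 16.3 CPM in HD unstimulated cells (SD, n = 2), a difference of 1.28 ± 0.21 (adjusted p = 3.67e-04). In naive cells the difference was -0.19 ± 0.19 (adjusted p = 0.49). The response of HD cells exceeded that of naive cells by 1.47 ± 0.28 (adjusted p = 0.00321).

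Without the antibody Serpinb9 in HD cells was 0.38 ± 0.21 above naive cells, which did not pass the threshold (adjusted p = 0.186), although the libraries did not overlap. With the antibody it was higher in HD than in naive cells by 1.85 ± 0.19 (adjusted p = 4.11e-06) and higher in HD than in LD cells by 1.11 ± 0.21 (adjusted p = 0.00428). It was also higher in LD than in naive cells, by 0.74 ± 0.21 (adjusted p = 0.0328). With pool as a factor this difference was 0.94 and did not pass. The LD against naive call was lost without LD library 1 (adjusted p = 0.05, unrounded value above the threshold), LD library 3 (adjusted p = 0.228), naive anti-NK1.1 library 1 (adjusted p = 0.0764) or naive anti-NK1.1 library 4 (adjusted p = 0.0811). The HD against LD call was lost without LD library 1 (adjusted p = 0.0587).

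Serpinb9b, the neighbouring paralog, known in the mouse as SPI-CI and described as an inhibitor of granzyme M, lies on the plus strand at chr13:33027416-33041884. Its level was 97.3, 95.5 and 63.8 CPM in HD anti-NK1.1 libraries, 29.1 and 34.1 CPM in HD unstimulated libraries, 22.2 and 19.1 CPM in LD anti-NK1.1 libraries, 16.6, 13.3 and 15.9 CPM in naive anti-NK1.1 libraries, and 22.2, 26.1 and 24.4 CPM in naive unstimulated libraries. The antibody went with opposite directions in the HD and naive cells, and in neither did the stimulated and unstimulated libraries overlap. The difference was 1.41 ± 0.24 in HD cells (adjusted p = 3.85e-04) and -0.67 ± 0.21 in naive cells (adjusted p = 0.028). The responses differed by 2.08 ± 0.32 (adjusted p = 5.67e-04).

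The fall of Serpinb9b in naive cells lost its call without naive anti-NK1.1 library 4 (adjusted p = 0.0906) or 5 (adjusted p = 0.0521) and without naive unstimulated library 4 (adjusted p = 0.0844) or 6 (adjusted p = 0.062). With the antibody Serpinb9b was 5.51-fold higher in HD than in naive cells (2.46 ± 0.21, adjusted p = 7.07e-07) and 4.07-fold higher in HD than in LD cells (2.02 ± 0.24, adjusted p = 9.46e-05). LD cells were 0.44 ± 0.24 above naive cells (adjusted p = 0.241). HD cells without the antibody were 0.38 ± 0.24 above naive cells (adjusted p = 0.23). Neither difference passed the threshold. Granzyme M itself, Gzmm, had 3.58 ± 1.09 CPM in HD anti-NK1.1 and 2.27 ± 0.101 CPM in HD unstimulated cells (SD, n = 3 and 2), against 5.51 ± 0.928 CPM in naive anti-NK1.1 and 29.7 ± 6.09 CPM in naive unstimulated cells (SD, n = 3 each). Serpinb9b was highest in HD anti-NK1.1 cells. Mean Gzmm there was below both naive groups and above HD unstimulated and LD cells (LD 2.71 ± 0.836 CPM, SD, n = 2). In HD cells Gzmm differed by 0.59 ± 0.35 with the antibody and was not called (adjusted p = 0.21), although the libraries did not overlap. Naive cells showed a fall of both genes with the antibody (Gzmm -2.41 ± 0.31, adjusted p = 6.18e-05). The difference of the Gzmm responses, HD minus naive, was called higher (adjusted p = 6.79e-04), the same direction as for Serpinb9b.

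Serpinb6b, a mouse paralog described as an inhibitor of mouse granzyme A, lies upstream of Serpinb9 on the plus strand at chr13:32965209-32979067. Its level was 3246, 3654 and 3488 CPM in HD anti-NK1.1 libraries, 1509 and 1289 CPM in HD unstimulated libraries, 1108 and 877 CPM in LD anti-NK1.1 libraries, 565, 585 and 697 CPM in naive anti-NK1.1 libraries, and 746, 499 and 703 CPM in naive unstimulated libraries. The HD anti-NK1.1, HD unstimulated and LD groups formed separate steps without overlap, and the naive groups overlapped below them. The difference with the antibody was 1.31 ± 0.23 in HD cells (adjusted p = 6.36e-04) and -0.06 ± 0.21 in naive cells (adjusted p = 0.858). The responses differed by 1.37 ± 0.31 (adjusted p = 0.00872).

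Serpinb6b also differed between HD and naive cells without the antibody, with 1399 ± 155 CPM in HD unstimulated cells (SD, n = 2) and 649 ± 132 CPM in naive unstimulated cells (SD, n = 3), a difference of 1.12 ± 0.23 (adjusted p = 0.00201). Whether this difference is larger than that of Serpinb9 or Serpinb9b was not tested. With pool as a factor the difference was 0.79 and no longer passed (adjusted p = 0.279). With the antibody Serpinb6b was higher in HD than in naive cells by 2.50 ± 0.21 (adjusted p = 5.90e-07) and higher in HD than in LD cells by 1.81 ± 0.23 (adjusted p = 2.22e-04). LD cells were 0.68 ± 0.23 above naive cells (adjusted p = 0.0655).

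The 300-base windows around the starts of these 3 neighbours, 250 bases before to 50 after the start in RefSeq on GRCm38.p6, are shown because the genes rose together in HD cells. They are the plus strand, 5′ to 3′, at chr13:33004291-33004590 (Serpinb9, a RefSeq start inside the span of the gene in GENCODE), chr13:33027164-33027463 (Serpinb9b) and chr13:32965011-32965310 (Serpinb6b). Capitals mark the only match among 9 motifs searched on both strands, GAAANNGAA for interferon regulatory factors (IRF), read here as its reverse complement.
Serpinb9: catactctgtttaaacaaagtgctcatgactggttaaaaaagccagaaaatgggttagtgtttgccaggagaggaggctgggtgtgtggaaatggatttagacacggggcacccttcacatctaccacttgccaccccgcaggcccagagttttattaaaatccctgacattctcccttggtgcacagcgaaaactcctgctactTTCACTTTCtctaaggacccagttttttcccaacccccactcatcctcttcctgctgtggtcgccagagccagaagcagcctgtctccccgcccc
Serpinb9b: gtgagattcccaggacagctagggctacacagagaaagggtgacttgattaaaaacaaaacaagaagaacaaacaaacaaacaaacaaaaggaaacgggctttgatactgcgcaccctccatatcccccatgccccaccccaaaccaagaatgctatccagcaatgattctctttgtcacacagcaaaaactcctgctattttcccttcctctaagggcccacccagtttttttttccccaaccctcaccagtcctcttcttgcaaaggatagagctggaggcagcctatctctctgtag
Serpinb6b: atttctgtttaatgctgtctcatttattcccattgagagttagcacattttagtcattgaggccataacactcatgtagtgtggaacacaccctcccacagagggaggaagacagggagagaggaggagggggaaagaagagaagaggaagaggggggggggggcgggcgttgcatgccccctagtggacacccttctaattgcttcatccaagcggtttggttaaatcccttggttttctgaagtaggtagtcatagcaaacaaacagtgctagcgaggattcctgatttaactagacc

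The IRF pattern lay 45 to 37 bases before the start of Serpinb9 and is held by 8.56% of all 32851 windows of this length. None of the 9 patterns was in the windows of Serpinb9b and Serpinb6b. The other patterns were TGANTCA (AP-1), TTCNNNGAA (STAT), GGNNTTTCC (NF-kB), AGGTGTGA (T-box), TGACGTCA (CRE), CACGTG (E-box), ACGTGC (hypoxia) and GCGTGGGCG (EGR), held by 7.81%, 8.3%, 5.82%, 1.28%, 1.79%, 7.15%, 5.91% and 0.612% of windows. The windows of Serpinb9 and Serpinb9b resemble each other, with 150 identical bases in a local alignment of 214 columns (70.1%). Within it the stretch of Serpinb9b across from the IRF match read TTCCCTTCC, which differs from TTCACTTTC in Serpinb9 by A4C and T8C, counted from 1 at the 5′ end of the match with the base of Serpinb9 first. The window of Serpina3g held an NF-kB match 84 to 76 and a STAT match 33 to 25 bases before its start, and that of Serpine2 held none of the patterns. A match of letters is a description of the window and says nothing of binding.

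Serpinb9 and granzyme B were also compared as levels per kilobase of exon. Gzmb rose with the antibody in HD cells, with 2905 ± 138 CPM in HD anti-NK1.1 cells (SD, n = 3) and 1509 ± 147 CPM in HD unstimulated cells (SD, n = 2), a difference of 0.95 ± 0.27 (adjusted p = 0.0136) that lost its call without HD unstimulated library 1 (0.85, adjusted p = 0.0939). It averaged 668 ± 255 CPM in LD anti-NK1.1 cells (SD, n = 2), 199 ± 43.2 CPM in naive anti-NK1.1 cells and 222 ± 38.6 CPM in naive unstimulated cells (SD, n = 3 each). The ratio of inhibitor to granzyme RNA was therefore lowest in HD cells, although Serpinb9 itself was highest in HD anti-NK1.1 cells. It was 0.16 ± 0.021 in HD anti-NK1.1 (n = 3), 0.126 ± 0.0167 in HD unstimulated (n = 2), 0.335 ± 0.0669 in LD anti-NK1.1 (n = 2), 0.654 ± 0.0825 in naive anti-NK1.1 (n = 3) and 0.669 ± 0.112 in naive unstimulated cells (n = 3), each with its SD. Every HD library, at 0.114 to 0.181, lay below both LD libraries, at 0.288 and 0.383, and these lay below every naive library, at 0.576 to 0.792.

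The ratio of Serpinb6b to Gzma was higher in stimulated than in unstimulated libraries, in HD and in naive cells. Gzma, the granzyme A gene, fell with the antibody in HD cells by 1.91 on the log2 scale (SE 0.26, adjusted p = 7.45e-05), with 1529 ± 361 CPM in HD anti-NK1.1 (SD, n = 3) and 5640.2 ± 251 CPM in HD unstimulated cells (SD, n = 2). It fell in naive cells by 1.52 (SE 0.23, adjusted p = 2.62e-04), with 2158 ± 125 CPM in naive anti-NK1.1 and 6181 ± 314 CPM in naive unstimulated cells (SD, n = 3 each). The ratio of Serpinb6b to Gzma per kilobase was 1.05 ± 0.295 in HD anti-NK1.1 and 0.111 ± 0.0172 in HD unstimulated cells (SD, n = 3 and 2). It was 0.72 ± 0.307 in LD anti-NK1.1 (SD, n = 2), 0.127 ± 0.0074 in naive anti-NK1.1 and 0.047 ± 0.0112 in naive unstimulated cells (SD, n = 3 each). The stimulated and unstimulated libraries did not overlap in HD or in naive cells, and the naive anti-NK1.1 ratios of 0.122 to 0.135 lay within or just above the HD unstimulated ratios of 0.0985 and 0.123. No test was run on these ratios.

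**Figure D2:**
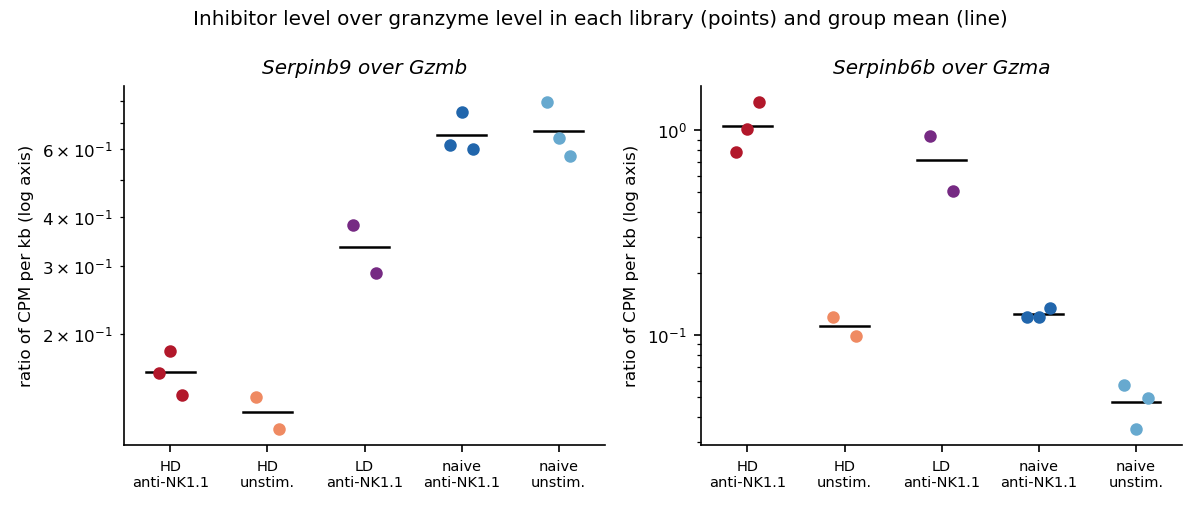
Ratio of inhibitor to granzyme level, each in CPM per kb, on a log axis for every library (points) and group mean (line). Serpinb9 over Gzmb is 0.114 to 0.181 in HD libraries and 0.576 to 0.792 in naive libraries, while Serpinb6b over Gzma is 0.785 to 1.37 in HD anti-NK1.1 libraries and 0.0985 to 0.123 in HD unstimulated libraries.

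Serpinb6a, the mouse counterpart of human SERPINB6 and an intracellular inhibitor of cathepsin G and of trypsin-like proteases, lies on the minus strand at chr13:33917918-34002794, with its lower coordinate 952.7 kb from that of Serpinb6b. Its level was 25.4, 35.1 and 34.2 CPM in HD anti-NK1.1 libraries, 52.6 and 72.8 CPM in HD unstimulated libraries, 10.6 and 14.6 CPM in LD anti-NK1.1 libraries, 20.3, 9.82 and 17.3 CPM in naive anti-NK1.1 libraries, and 22.1, 15.8 and 28.7 CPM in naive unstimulated libraries. The HD unstimulated libraries were the highest of the 13, and LD and naive anti-NK1.1 libraries overlapped at the bottom. With the antibody it was lower in HD cells, by 0.98 on the log2 scale (SE 0.34, adjusted p = 0.0361). In naive cells the difference was -0.51 ± 0.30 (adjusted p = 0.223). The responses differed by -0.48 ± 0.45, which did not pass (adjusted p = 0.524).

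The fall of Serpinb6a in HD cells is the weakest of the calls in that comparison and was lost without any single one of the 5 HD libraries. The adjusted p was 0.113 without HD anti-NK1.1 library 1, 0.0515 without library 2 and 0.0531 without library 3. It was 0.0562 without HD unstimulated library 1 and 0.243 without library 2. The difference between HD and naive cells passed more clearly. Without the antibody Serpinb6a was 2.86-fold higher in HD than in naive cells (1.52 ± 0.34, adjusted p = 0.00321), although with pool as a factor the difference was 1.98 and did not pass (adjusted p = 0.0683). With the antibody it was higher in HD than in naive cells by 1.04 ± 0.30 (adjusted p = 0.0122), a call lost without naive anti-NK1.1 library 4 (adjusted p = 0.0587) and with pool as a factor (1.51, adjusted p = 0.135). It was higher in HD than in LD cells by 1.33 ± 0.34 (adjusted p = 0.0246), a call lost without HD anti-NK1.1 library 2 (adjusted p = 0.0762) or 3 (adjusted p = 0.0722) and without LD library 1 (adjusted p = 0.168) or 3 (adjusted p = 0.0638). LD and naive cells differed by -0.28 ± 0.34 (adjusted p = 0.63).

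The window of Serpinb6a at its upstream start, minus strand at chr13:34002745-34003044, is shown because its response ran against that of the 3 genes above. Capitals mark an IRF match and 2 STAT matches (TTCNNNGAA), of which the first overlaps the IRF match.
Serpinb6a: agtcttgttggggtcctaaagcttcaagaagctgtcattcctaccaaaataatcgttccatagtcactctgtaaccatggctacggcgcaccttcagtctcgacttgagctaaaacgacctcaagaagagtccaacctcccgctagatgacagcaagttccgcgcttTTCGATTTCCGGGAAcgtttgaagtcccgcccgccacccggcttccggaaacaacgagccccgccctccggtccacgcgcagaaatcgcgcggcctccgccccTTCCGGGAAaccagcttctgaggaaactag

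The STAT patterns lay 77 to 69 bases before the start and from 20 to 28 after it, and the IRF pattern lay 83 to 75 bases before it. The window of a second RefSeq start of Serpinb6a, at chr13:33936034-33936333, held 1 IRF match and no STAT match. Cathepsin G, Ctsg, a granule protease better known from neutrophils, was itself near the floor in HD cells, with 2 reads over the HD anti-NK1.1 libraries and 1 read over the HD unstimulated libraries. It had 122 and 183 reads in LD libraries, 3 to 22 reads in naive anti-NK1.1 libraries and 4 to 23 in naive unstimulated libraries. Serpinb6a was thus highest in a group with 1 read of Ctsg, and lowest by its mean in the LD group, where Ctsg was highest. Of 8 neutrophil markers 5 are in the table, and their sum was 4.53 to 5.24 CPM in HD anti-NK1.1, 4.21 to 7.23 in HD unstimulated, 17.1 to 26.5 in LD anti-NK1.1, 6.88 to 13.5 in naive anti-NK1.1 and 10.5 to 14.9 CPM in naive unstimulated cells, and their part in these levels was not tested.

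**Figure D3:**
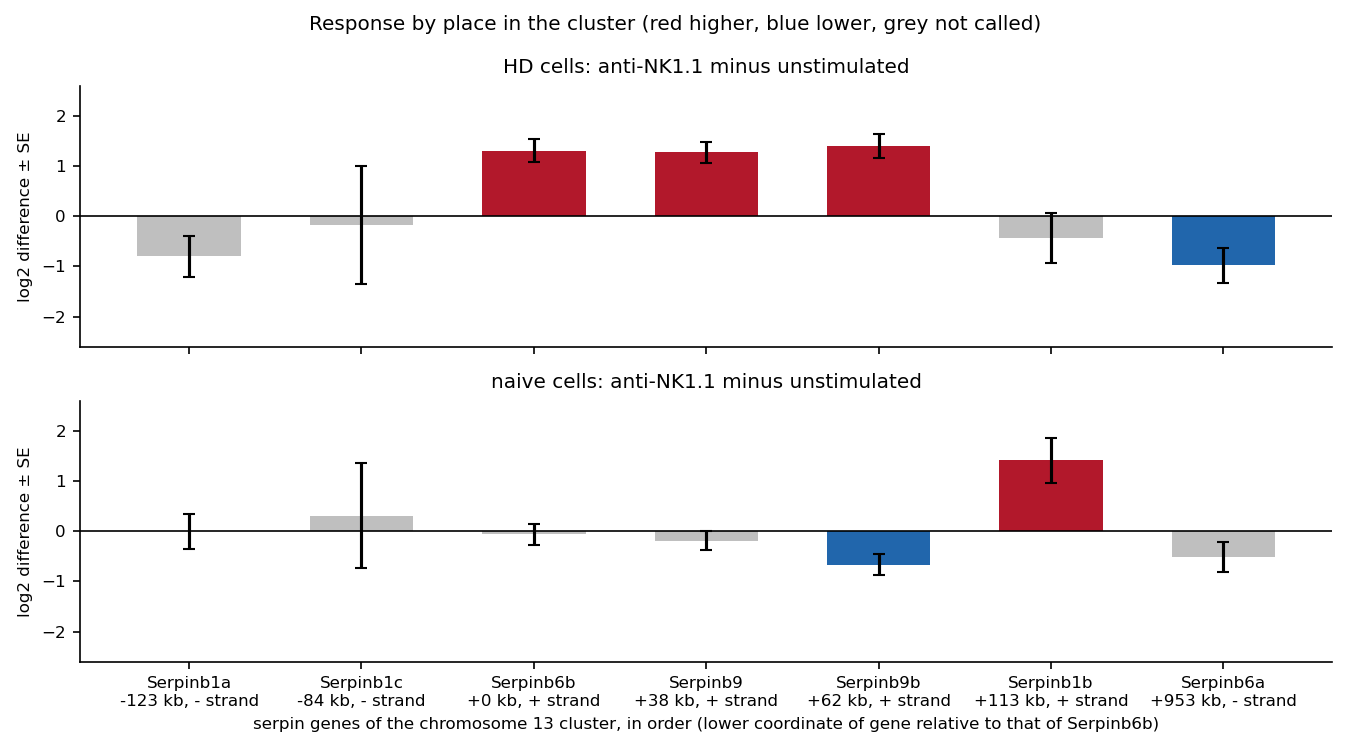
Response to anti-NK1.1 (log2 difference with SE) of the 7 tested serpin genes of the chromosome 13 cluster, in chromosome order, in HD cells (top) and naive cells (bottom). Serpinb6b, Serpinb9 and Serpinb9b, which start within 62.2 kb, rose in HD cells by 1.31, 1.28 and 1.41. They lie between Serpinb1a, Serpinb1c and Serpinb1b, which passed no threshold in HD cells. In HD cells Serpinb1a, Serpinb1c and Serpinb1b had low mean levels, from 0.356 CPM (Serpinb1c, anti-NK1.1) to 5.23 CPM (Serpinb1b, unstimulated).

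Serpina3g, also called Spi2A, is an intracellular member of the mouse clade A3 on chromosome 12 (plus strand, chr12:104236245-104241939) and is known to inhibit lysosomal cysteine cathepsins such as cathepsin B. Its level was 205, 228 and 195 CPM in HD anti-NK1.1 libraries, 148 and 193 CPM in HD unstimulated libraries, 125 and 193 CPM in LD anti-NK1.1 libraries, 93.5, 86.8 and 102 CPM in naive anti-NK1.1 libraries, and 119, 149.9 and 184 CPM in naive unstimulated libraries. The naive anti-NK1.1 libraries were the 3 lowest of the 13. The HD anti-NK1.1 libraries were the 3 highest, the lowest of them at 195 CPM beside 193 CPM in an HD unstimulated and an LD library. With the antibody it was lower in naive cells, by 0.66 on the log2 scale (SE 0.21, adjusted p = 0.0318). In HD cells the difference was 0.30 ± 0.24 (adjusted p = 0.36), and the responses differed by 0.96 ± 0.32, just outside the threshold (adjusted p = 0.0578).

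The naive call of Serpina3g was lost without naive anti-NK1.1 library 1 (adjusted p = 0.0765) or 4 (adjusted p = 0.089) and without naive unstimulated library 4 (adjusted p = 0.0772) or 6 (adjusted p = 0.125). The difference of the responses passed without naive unstimulated library 1 (1.12, adjusted p = 0.0366) or without LD library 1 (adjusted p = 0.0411) or 3 (adjusted p = 0.0415). With the antibody Serpina3g was 2.22-fold higher in HD than in naive cells (1.15 ± 0.21, adjusted p = 6.93e-04). It did not pass between HD and LD cells (0.43 ± 0.24, adjusted p = 0.316), between LD and naive cells (0.72 ± 0.24, adjusted p = 0.0603; 1.04 and adjusted p = 0.0439 without LD library 1), or between HD and naive cells without the antibody (0.19 ± 0.24, adjusted p = 0.58). Its target Ctsb was lower in HD than in naive cells with the antibody (-0.65 ± 0.23, adjusted p = 0.0369), opposite to Serpina3g. This call was lost without HD anti-NK1.1 library 1 (adjusted p = 0.0715) or 3 (adjusted p = 0.12) or naive anti-NK1.1 library 1 (adjusted p = 0.147) or 5 (adjusted p = 0.101). With pool as a factor the difference was 0.01 (adjusted p = 0.995). Another cysteine cathepsin, Ctsl, was lower in that comparison too (-1.17 ± 0.31, adjusted p = 0.00828). With pool as a factor the Ctsl difference was -0.73 (adjusted p = 0.499). Ctsl was also lower in HD than in naive cells without the antibody, where Serpina3g did not pass (Ctsl -1.68 ± 0.35, adjusted p = 0.00214). With pool as a factor that difference was -1.25 (adjusted p = 0.271). Ctsb had the same sign as Serpina3g in the naive response (-0.51 ± 0.23, adjusted p = 0.118) and the opposite sign in the HD response (-0.66 ± 0.26, adjusted p = 0.0668), and passed in neither. Of 50-base words in the transcripts of Serpina3g, 15.5% also occur in other genes, most often in its neighbour Serpina3h, so reads of close relatives may have been counted with it; this share was at most 2.92% in the other 5 genes.

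Serpine2 lies on chromosome 1 (minus strand, chr1:79794197-79861180) and encodes a secreted inhibitor of thrombin, urokinase and plasmin that also binds the extracellular matrix. Its level was 43.7, 35.4 and 75.5 CPM in HD anti-NK1.1 libraries, 10.5 and 3.5 CPM in HD unstimulated libraries, 138 and 303 CPM in LD anti-NK1.1 libraries, 379.5, 231 and 438 CPM in naive anti-NK1.1 libraries, and 7.8, 13.9 and 8.89 CPM in naive unstimulated libraries. Every stimulated library was above every unstimulated library, and among stimulated libraries all HD ones were below all LD and naive ones. Behind the low values stood 89 and 42 reads in HD unstimulated libraries and 81, 107 and 81 reads in naive unstimulated libraries. With the antibody it was 7.99-fold higher in HD cells (SE 0.47 on the log2 scale, adjusted p = 2.64e-04) and 33.9-fold higher in naive cells (5.08 ± 0.42 on the log2 scale, adjusted p = 1.23e-06).

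The response of Serpine2 was smaller in HD than in naive cells, by 2.08 on the log2 scale (SE 0.64, adjusted p = 0.0402). That difference was lost without any of 7 single libraries: HD anti-NK1.1 library 1 (adjusted p = 0.0787) or 2 (adjusted p = 0.0891), HD unstimulated library 1 (-1.30, adjusted p = 0.223), naive anti-NK1.1 library 1 (adjusted p = 0.0814) or 5 (adjusted p = 0.0901), and naive unstimulated library 1 (adjusted p = 0.0805) or 6 (adjusted p = 0.0711). With the antibody Serpine2 was 6.89-fold lower in HD than in naive cells (-2.78 ± 0.42, adjusted p = 1.41e-04), while with pool as a factor this difference was -1.65 and did not pass (adjusted p = 0.215). It was 4.17-fold lower in HD than in LD cells (-2.06 ± 0.47, adjusted p = 0.0145), a call lost without HD anti-NK1.1 library 2 (adjusted p = 0.0549) or LD library 3 (-1.49, adjusted p = 0.203). LD and naive cells differed by -0.72 ± 0.47 (adjusted p = 0.345). Without the antibody HD and naive cells differed by -0.70 ± 0.47 (adjusted p = 0.276). The libraries overlapped in both comparisons.

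Of the proteases that Serpine2 meets, urokinase, Plau, rose with the antibody in HD and in naive cells, by 2.58 ± 0.80 in HD cells (adjusted p = 0.0226) and 2.87 ± 0.71 in naive cells (adjusted p = 0.00808). The HD call was lost without HD anti-NK1.1 library 1 (adjusted p = 0.0634) or 2 (adjusted p = 0.0517) and without HD unstimulated library 1 (adjusted p = 0.123) or 2 (adjusted p = 0.0739). Its level stayed low, at 3.34 ± 0.778 CPM in HD anti-NK1.1 (SD, n = 3) and 0.492 ± 0.128 CPM in HD unstimulated cells (SD, n = 2), and at 2.88 ± 1.22 CPM in naive anti-NK1.1 and 0.495 ± 0.472 CPM in naive unstimulated cells (SD, n = 3 each). The urokinase receptor Plaur and the thrombin receptor F2r passed in neither response, with differences in HD cells of 0.23 ± 0.83 (adjusted p = 0.865) and -0.82 ± 0.34 (adjusted p = 0.0758). Of the 6 tested genes of the thrombin and plasminogen system 1 was higher and 1 lower in the HD response, where 15.9% and 17.2% of all genes were. In the naive response 2 were higher, where 14.5% of all genes were. Serpine2 is also expressed by stromal and endothelial cells. Of 8 markers of these cells 6 are in the table, and their sum was 28.3 to 37.4 CPM in HD anti-NK1.1 and 29.2 to 34.2 CPM in HD unstimulated cells, 39.6 to 44.4 CPM in LD anti-NK1.1 cells, and 61 to 67.8 CPM in naive anti-NK1.1 and 25.7 to 34.9 CPM in naive unstimulated cells. In HD cells, where Serpine2 rose 7.99-fold, the marker sums of the stimulated and unstimulated libraries overlapped, and Pdgfrb had no read in either. In naive cells the marker sum was higher with the antibody, and of the 5 markers tested Pecam1 and Kdr were higher and none was called lower by limma, with 4 of the 5 at an unadjusted p under 0.05. The median log2 difference of the 5 was nonetheless -1.50, beside 0.01 over all genes. With the antibody Vwf, Pecam1 and Kdr were lower in HD than in naive cells, as Serpine2 was. The part of these cells in the level of Serpine2 was not tested.

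**Figure D4:**
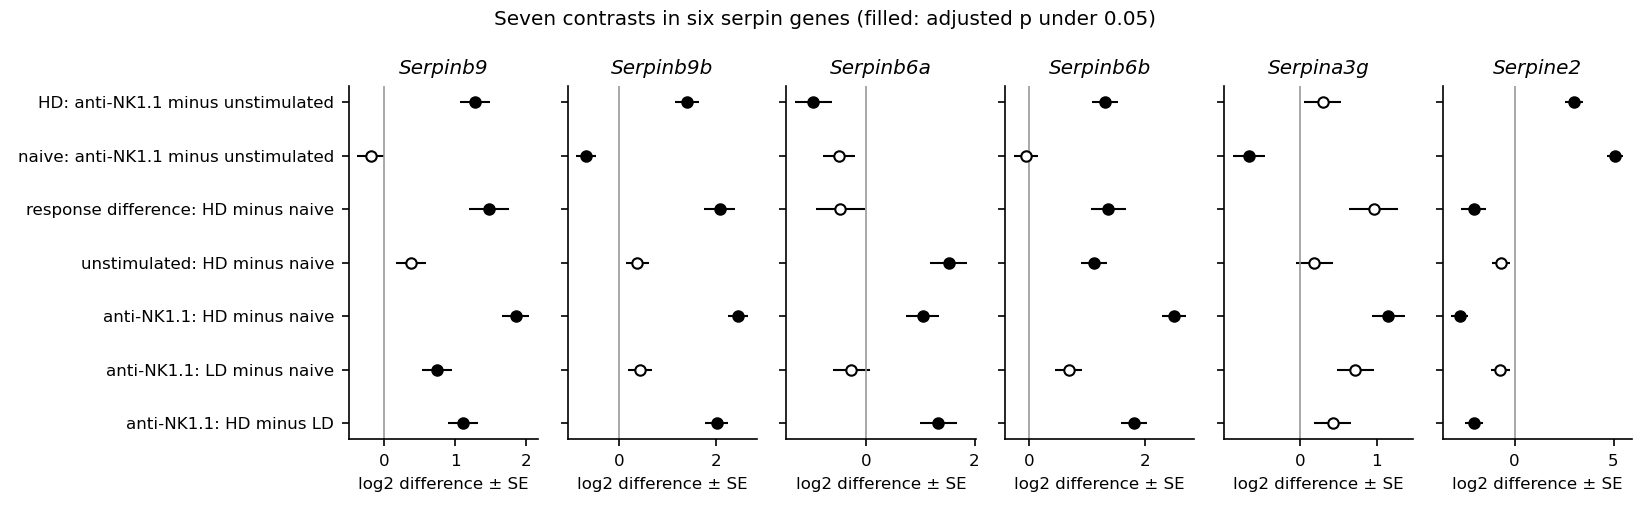
Log2 difference with its SE for each of the 6 serpin genes in 7 comparisons, filled where the adjusted p was under 0.05; each panel has its own horizontal scale. Serpinb9, Serpinb9b and Serpinb6b are filled to the right for the HD response and for the difference of the responses, and Serpine2 is filled to the right for both responses and to the left for their difference.

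Set against all 11543 genes tested, the counts of serpin genes called were these. For the HD response, with 4 higher and 1 lower, the median difference was 1.30 over the 6 and -0.01 over all genes. For the naive response 1 was higher and 2 lower, with medians of -0.35 and 0.01. For the difference of the responses 3 were higher and 1 lower, where 7.22% and 8.01% of genes were, with medians of 1.17 and -0.02. Because the genes were chosen with these results known, nothing is read from these counts and medians.

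Without the antibody, 2 of the 6 were higher in HD than in naive cells, Serpinb6b and Serpinb6a, where 16.6% of all genes were higher and 17.3% lower. None of the 6 was called lower by limma there, and the genes with unadjusted p under 0.05 were the same 2. With the antibody, 5 were higher in HD than in naive cells and 1 lower, where 21.1% and 22.4% of genes were. Between HD and LD cells 4 were higher and 1 lower, where 3.27% and 5.33% of genes were, and Serpina3g alone did not pass. Between LD and naive cells only Serpinb9 was called, higher, where 6.57% of genes were higher and 7.0% lower. None was called lower by limma there, and 3 of the 6 had an unadjusted p under 0.05. Comparisons that share the HD anti-NK1.1 or the naive libraries are not independent of each other.

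The table holds 9 other serpin genes, of which 7 passed the filter. In the HD response limma called none of these 7, and none had an unadjusted p under 0.05. In the naive response Serpinb1b and Serpina3f rose by 1.42 ± 0.45 (adjusted p = 0.0282) and 1.11 ± 0.26 (adjusted p = 0.00492), and Serpini1 fell by 1.63 (SE 0.41, adjusted p = 0.00901). Serpina3f, the neighbour of Serpina3g on chromosome 12, thus rose in naive cells where Serpina3g fell. The call of Serpinb1b was lost without naive anti-NK1.1 library 4 (adjusted p = 0.114) or 5 (adjusted p = 0.0659) and without naive unstimulated library 6 (adjusted p = 0.116). Of the 50-base words of Serpina3f, 10.6% occur in other genes. Serpinb1a, whose protein inhibits neutrophil serine proteases, was lower in HD than in naive cells with the antibody (-1.50 ± 0.35, adjusted p = 0.00355; -0.74 and adjusted p = 0.534 with pool as a factor).

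Of the granzymes and cathepsins, families that include known targets of these serpins, some genes were called higher and others lower. Over all genes tested, 15.9% were higher and 17.2% lower in the HD response, and 14.5% were higher and 14.7% lower in the naive response. In the HD response 2 of 9 tested granzymes were higher (Gzmb and Gzmc) and 1 lower (Gzma), and in the naive response 1 was higher (Gzmk) and 3 were lower (Gzma, Gzmm and Gzmc). The HD call of Gzmc was lost without HD unstimulated library 1 (adjusted p = 0.0774). Without the antibody 6 of the 9 were higher in HD than in naive cells and 2 lower, where 16.6% and 17.3% of all genes were. The 6 were Gzmb, Gzmc, Gzmd, Gzme, Gzmf and Gzmg, and Serpinb9 did not pass in that comparison. Of 8 cathepsins none was higher and 1, Ctsw, was lower in the HD response (lost without HD unstimulated library 2, adjusted p = 0.23), and 3 were lower in the naive response. Of 3 cystatins, inhibitors of cysteine cathepsins, none passed in the HD response with limma and none had an unadjusted p under 0.05, and Cst7 was lower in the naive response (-0.57 ± 0.19, adjusted p = 0.0319), a call lost without naive anti-NK1.1 library 4 (adjusted p = 0.0697) or 5 (adjusted p = 0.111) and without naive unstimulated library 1 (adjusted p = 0.0829) or 6 (adjusted p = 0.0993).

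Across the 13 libraries the log2 levels of Serpinb9, Serpinb9b and Serpinb6b ran together, with Pearson r of 0.92 between Serpinb9 and Serpinb9b, 0.93 between Serpinb9 and Serpinb6b and 0.92 between Serpinb9b and Serpinb6b. Serpina3g, on chromosome 12, had r of 0.78 with Serpinb9, 0.79 with Serpinb9b and 0.70 with Serpinb6b. Serpinb6a and Serpine2 ran against each other with r of -0.67. These values describe 13 libraries that share groups and pools and carry no test. By the same measure the tested genes most like Serpinb9 were Mid2 (r = 0.968), Gstt1 (0.956) and Tigar (0.955). Those most like Serpinb9b were Sec24d (0.951), Mt2 (0.949) and Akap1 (0.940), and the genes most like Serpinb6b were Eef1akmt3 (0.965), Gcnt4 (0.955) and Bhlha15 (0.954). Those most like Serpinb6a were Ankrd29 (0.946), H1f0 (0.941) and Prdx5 (0.927). Serpina3g was followed by Tusc3 (0.965), Mrpl57 (0.959) and Tmem126a (0.958), and Serpine2 by Mob3b (0.970), Pmepa1 (0.963) and Ipcef1 (0.958). No gene stands in more than 1 of these lists.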

How the data were processed

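Messenger RNA was measured by RNA sequencing in 13 libraries of mouse spleen NK cells. Per the labels' protocols, the libraries keep the strand and were combined into pools once the first strand had been made. The submitters' processing notes name mm10 as the build, and the aligner, counting tool and annotation are not given in the sources used here. The deposited table is named as counts, but its values are log2 of quantile-normalized counts plus 1, a unit read from the values (0.00 to 17.92, with nearly the same sorted values in every library). Quantile normalization by the authors removes differences of total depth and forces every library to 1 distribution, so a change shared by most genes cannot be seen.

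limma 3.58.1 in R 4.3.3 was fitted with a mean-variance trend to the 11543 genes that reached 10 on the back-transformed scale in 2 or more libraries, over all 13 libraries and 5 groups, two-sided, with Benjamini-Hochberg adjustment over all genes tested. The 6 serpin genes, the gene lists and the motif patterns were chosen with earlier results of these data known. Named genes are the 6 serpins, up to 3 called other serpins per comparison, granzymes, cathepsins and Serpine2 partners listed by name, and the 3 genes most like each serpin; others are named where a count is small, which was done after their values were seen. CPM are back-transformed values over their sum, and CPM per kb use GENCODE M21 exon lengths. Reads per gene were recovered from the order of values up to rank 7000 by level. Same-numbered libraries did not deviate together over all genes (r of -0.143 to 0.162), and the main fit did not pair them. A pairing that touches only some genes could not be seen this way. Filter, trend, offset, scaling, pool, block and left-out libraries were varied as alternatives. For naive anti-NK1.1 libraries 1 and 4 the stimulation label gave only the time, and their titles gave the group.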

Additional observations from a re-analysis of the deposited data

Results flagged for a closer look

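The response to anti-NK1.1 differed between HD and naive cells for 4 of the 6 serpin genes in limma's test of that difference. Of these, 3 were higher and 1 lower, where 7.22% and 8.01% of all genes tested were. The genes were chosen with these results known, so nothing is read from the count. The response was larger in HD cells by 1.47 for Serpinb9, by 2.08 for Serpinb9b and by 1.37 for Serpinb6b. The value for Serpine2 was -2.08, each on the log2 scale. For Serpinb9b the responses had opposite signs, with all 3 HD anti-NK1.1 libraries above both HD unstimulated libraries and all 3 naive anti-NK1.1 libraries below all 3 naive unstimulated libraries. For Serpine2 both responses were increases. All HD libraries were in pool 1 and all naive libraries in pool 2, so each response was taken within 1 pool. A shift shared by all libraries of a pool cancels in this difference. A response that differs with the pool cannot be told apart from a response that differs with culture.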

How the results depend on the processing

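Over 21 alternatives the 6 serpin genes gave 882 values in 7 comparisons, of which 822 stayed on their side of the threshold, 53 lost the call, 7 gained one, and 0 called values reversed. The rises of Serpinb9, Serpinb9b, Serpinb6b and Serpine2 in HD cells and of Serpine2 in naive cells kept their calls under all 21. Whether the replicate number pairs libraries is not known. With that number as a block, the naive response had 1 serpin (3 without the block) and 1864 genes called (3376). HD against naive had 0 serpins (2) and 2042 genes (3909) without the antibody, and 2296 genes (5023) with it. LD against naive had 0 serpins (1) and 225 genes (1566). HD against LD had 577 genes (993), and the difference of responses had 856 genes (1758). Under the block 8 serpin calls were lost. They were Serpinb9b (-0.69, adjusted p = 0.139) and Serpina3g (-0.57, 0.203) in the naive response, and Serpinb6b (adjusted p = 0.0716) and Serpinb6a (1.11, 0.0592) in HD against naive without the antibody. With the antibody they were Serpinb6a in HD against naive (0.45, adjusted p = 0.376, against 1.04 without the block) and Serpinb9 in LD against naive (0.81, 0.287) and in HD against LD (1.05, 0.066). For the difference of responses Serpinb6b was lost (1.44, adjusted p = 0.0732). The other serpins and partner genes lost 23 calls. With pool as a factor, HD against naive without the antibody had 0 serpins and 1006 genes called, and with the antibody 1107 genes. LD against naive had 1 serpin and 658 genes called. There Serpinb9 lost its call (0.94) and Serpina3g gained one (1.04). HD against LD had 3 serpins (5 without the factor) and 444 genes. That factor turned Ctsb in HD against naive with the antibody to 0.01 and F2r without it to -0.12, neither called. LD against naive had 0 serpins without the variance trend, and 0 serpins and 905 genes in a fit of those groups alone. Without the variance trend the calls of Serpinb6a in the HD response (adjusted p = 0.0584), of Serpina3g in the naive response (0.0569) and of Serpine2 for the difference of responses (0.0793) were lost, and in a fit of HD and LD anti-NK1.1 cells alone that of Serpinb9 was lost (0.0547). The causes were not tested.

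Leaving out single libraries gave 1 to 3 serpins called in the naive response, 0 to 1 in LD against naive and 3 to 5 in HD against LD. Genes called ranged from 2509 to 3935 in the HD response (3823 with all libraries), from 2417 to 3996 in HD against naive without the antibody, from 660 to 1604 in LD against naive and from 444 to 1022 in HD against LD. HD unstimulated and LD cells have 2 libraries each, so a left-out library leaves 1, whose spread is taken from the other groups. Depth limits Serpine2 in unstimulated cells (42 to 107 reads per library) and Ctsg in HD cells.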
